A study of Mus musculus with 8 samples.

Results

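The proteasome genes described here are the rows of the expected-count table whose symbol begins with Psm, a letter from a to g and a number, and whose summed count is above 0. There were 48 such genes among 22549 rows, 11429 of which had a count above 0. A further row, Psma8, matched the name but had no count in any library, while the lowest member, Psmb11, had 0 to 3 counts per library. The genes were measured by RNA sequencing in iNKT cells (invariant natural killer T), lymphocytes whose semi-invariant receptor recognises lipids presented by CD1d. There were 4 libraries from the skin and 4 from the spleen of mice with the genotype CCR10+/EGFP, in which 1 allele of the chemokine receptor gene Ccr10 carries EGFP. Both tissues therefore share this genotype, and no wild-type group, treatment, age or sorting gate is given in the labels used here. Replicates are numbered 1 to 4 in each tissue, and separate animals are not named in the labels, so the spread behind each p-value is that of libraries and could be technical in part or whole.

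The libraries held 7191131 to 9791973 expected counts, and 5302 to 6012 genes had a count in a skin library against 6415 to 10094 in a spleen library. Of the genes tested, 29.4% ± 3.63 had no count per skin library, against 11.4% ± 10.2 per spleen library (SD, n = 4 each). Of 9 iNKT and T cell genes, Cd3d, Cd3e, Cd3g, Lck, Il2rb and Zbtb16 had counts in all 8 libraries, while Cd247 was at 0 in skin replicate 4 and spleen replicates 1 and 2, Tbx21 at 0 in spleen replicate 2 and Klrb1c at 0 in every skin library. By edgeR's test 2 of the 9 were lower in skin, Klrb1c and Cd3d, the other 7 not passing. Cd3d stood at 470 CPM on average in skin and 1112 in spleen (log2 difference -1.24 ± 0.22, SE; adjusted p = 0.025 by edgeR), and Lck at 890 and 2036 CPM without passing. Of 12 keratinocyte markers 9 had a count in skin and 3 in spleen, with summed levels of 273 to 1032 CPM for skin and 0 to 29.5 CPM for spleen. CPM is the usual depth-scaled read count, here with library sizes scaled by TMM. Of 6 B cell markers 0 had a count in skin and 5 in spleen (31.5 to 166 CPM in sum), and the defining B cell factor Pax5 stood at 0 in every library. Macrophage and dendritic cell markers summed to 42.6 to 206 CPM for skin and 34.8 to 234 CPM for spleen, with Csf1r, Emr1, C1qb, C1qc, Cd207 and Mrc1 at 0 throughout. Of 8 fibroblast markers 3 had a count in skin (0 to 168 CPM in sum) and 0 in spleen, and the 6 red cell markers summed to 0 to 2.12 CPM for skin and 111 to 274 CPM for spleen. The part of these other cells in the results was not tested. In such bulk samples, fewer cells of a type and less RNA per cell cannot be told apart.

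The proteasome is the main protease of the cytosol and nucleus and degrades proteins tagged with ubiquitin. Its 20S core is a barrel of alpha and beta rings whose inner beta subunits cut protein, and the 19S regulatory particle binds, unfolds and feeds in the tagged substrates. In lymphocytes and in cells exposed to interferon gamma, the catalytic subunits Psmb5, Psmb6 and Psmb7 are replaced by Psmb8, Psmb9 and Psmb10 to form the immunoproteasome. The PA28 cap, made of Psme1 and Psme2, is induced by the same cytokine, and both are known for shaping the peptides presented on MHC class I.

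Transcripts of the PA28 subunits Psme1 and Psme2 were lower in skin than in spleen iNKT cells, by 3.04-fold and 2.95-fold, and they were the members that passed the test. All 3 immunoproteasome subunits stood below their spleen levels in every skin library without passing. The genes of the constitutive core were divided between the directions, and none of them passed. The test was edgeR's quasi-likelihood test over all 6920 genes that passed a filter on low counts, with Benjamini-Hochberg adjustment and calls at an adjusted p under 0.05. With the spread between these libraries, a gene that did not pass is not shown to be alike in both tissues. Of the 48 members 46 passed the filter. Some of them, such as Psmg4, could pass through their spleen counts alone, and 34 had a count in all 8 libraries. By this rule 2 members were lower in skin and 0 higher, which is 4.35% of the members tested for the lower direction, beside 3.58% lower and 1.85% higher among all genes tested. The share of calls was thus near the background. The median log2 difference, the fitted log2 fold change of skin over spleen, was -0.41 over the 46 tested members and -0.29 over all genes tested, and -0.29 over the 34 detected in all libraries beside 0.03 over all such genes. At an unadjusted p under 0.05, 11 members stood lower and 0 higher, where all genes gave 7.33% and 5.1%. The tissues' values were fully apart for 11 members, all with skin below spleen (23.9% of the 46), beside 13.4% of all genes in that direction and 6.11% in the other. Leaving out 1 library gave 0 to 2 lower members and 0 higher over the 8 fits, in which all genes gave 17 to 111 lower, and leaving out any spleen library gave 0 lower members.

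**Figure D1:**
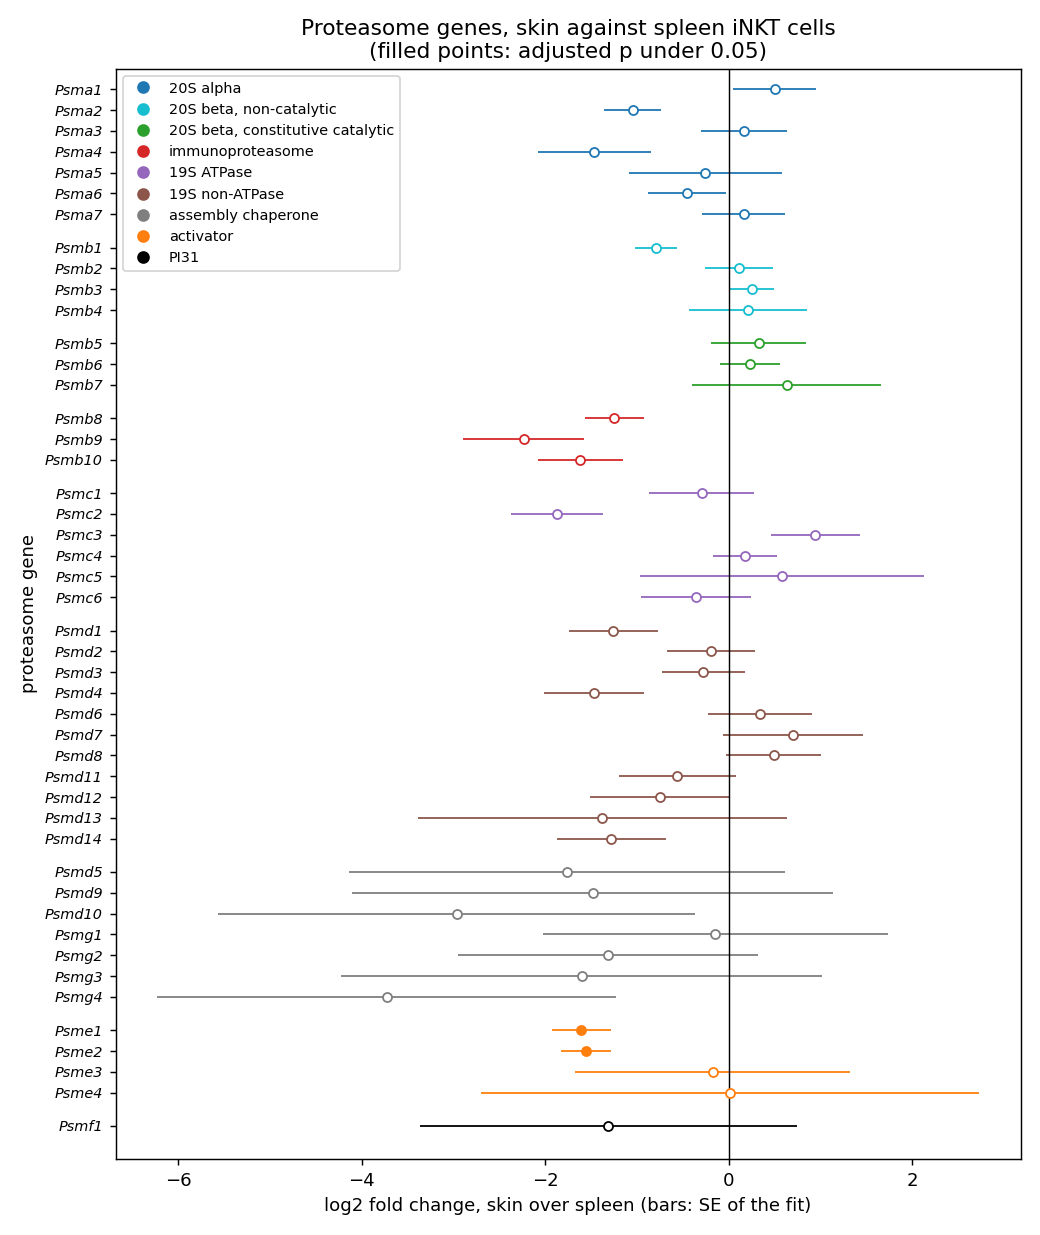
Fitted log2 fold change of each of the 46 tested proteasome genes, skin over spleen, grouped by class, with bars for the SE of the fit and filled points for an adjusted p under 0.05. Psme1 and Psme2 are the filled points, at -1.61 and -1.56, and the 3 immunoproteasome genes lie from -2.24 to -1.25.

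Read together as a share of each library's counts, the 48 members took 0.853% ± 0.252 of a skin library and 1.34% ± 0.0685 of a spleen library (SD, n = 4 each). The sum over all members was 12910, 9741, 6812 and 7335 CPM in skin replicates 1 to 4 and 12035, 13349, 14663 and 13489 CPM for spleen replicates 1 to 4. Skin replicate 1 thus reached into the spleen range, and the other skin libraries stayed below it. The constitutive core of 14 genes summed to 4131 ± 1174 CPM for skin and 4524 ± 504 CPM for spleen, and the regulatory particle of 17 genes to 3157 ± 1048 and 3767 ± 289 CPM, with overlapping libraries in both cases. The 3 immunoproteasome genes summed to 956 ± 385 and 2547 ± 496 CPM, and Psme1 with Psme2 to 547 ± 137 and 1636 ± 234 CPM, with every skin library below every spleen library. The 7 assembly chaperones summed to 182 ± 69.1 and 559 ± 101 CPM, again without overlap. These sums are descriptions and carry no test.

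**Figure D2:**
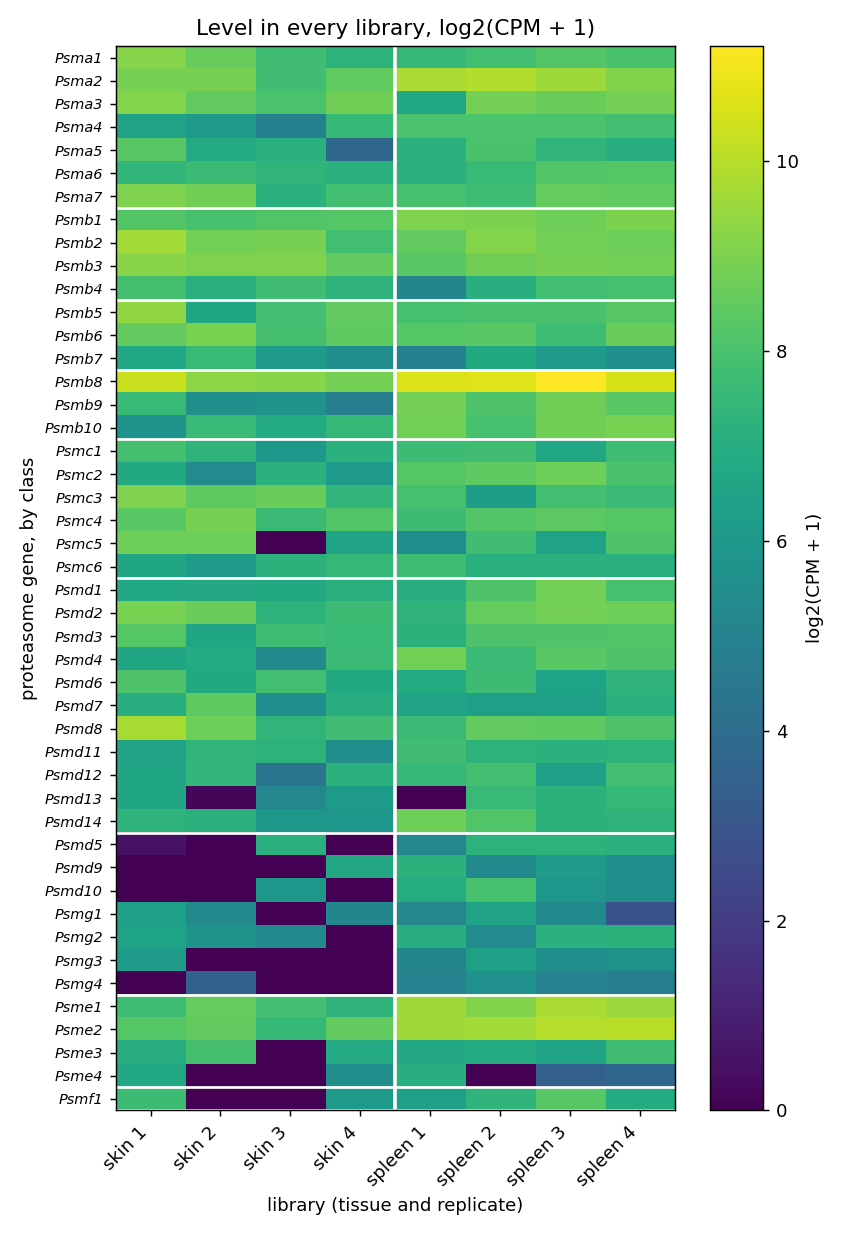
Level of each tested proteasome gene in every library as log2(CPM + 1), with rows grouped by class (white lines) and skin and spleen libraries side by side. Dark cells at 0 gather in the rows of the assembly chaperones in skin, where 16 of 28 values are 0, and Psmb8, Psme1 and Psme2 are brighter in spleen.

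The activators bind the ends of the 20S core and let substrates in without ubiquitin. Psme1, the alpha subunit of PA28, stood at 210, 372, 233 and 156 CPM in skin replicates 1 to 4 and at 790, 540, 894 and 732 CPM for spleen replicates 1 to 4. The highest skin value was in replicate 2 and the lowest spleen value also in replicate 2, and the tissues did not overlap. The log2 difference was -1.61 ± 0.32 (SE; adjusted p = 0.0411 by edgeR). Psme2, the beta subunit, stood at 302, 367, 179 and 369 CPM for skin and 788, 798, 987 and 1017 CPM for spleen. Its skin values were close to each other but for a low one in replicate 3, and they stayed far from the spleen values. The log2 difference was -1.56 ± 0.27 (SE; adjusted p = 0.0243 by edgeR). The size of the difference held when a library was left out, from -1.93 to -1.48 for Psme1 and from -1.71 to -1.42 for Psme2, but the calls did not hold throughout. Psme1 was called in 2 of these 8 fits and lost without skin replicates 1 or 3 or any 1 spleen library, with adjusted p up to 0.137. Psme2 was called in 3 and lost without skin replicate 1 or any 1 spleen library, with adjusted p up to 0.0994. The T cell gene Cd3d was lower in the same libraries, and its part in the PA28 difference was not tested. RefSeq lists a further copy of Psme2, Psme2b, and reads shared by such copies cannot be told apart with certainty.

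Psme1 and Psme2 are near neighbours on chromosome 14 in RefSeq's GRCm38.p6 annotation, with the gene Emc9 between them. The bases before their start sites are shown because these are the members that passed the test. Whether the genes vary together was not tested. They come from RefSeq's GRCm38.p6, not from the mm9 build named for the counts. The Psme1 stretch lies at chr14:55578244-55578359 on the plus strand, is 116 bases long and ends 134 bases before the start site, since the bases between overlap an annotated exon. That of Psme2 lies at chr14:55591102-55591351 on the minus strand and is the 250 bases before the upstream of 2 listed start sites. For comparison, 30 bases around the GAS element found before the immunoproteasome gene Psmb8 are given from chr17:34198088-34198117 on the plus strand, with that element in capitals, 88 bases before the start site.
Psme1: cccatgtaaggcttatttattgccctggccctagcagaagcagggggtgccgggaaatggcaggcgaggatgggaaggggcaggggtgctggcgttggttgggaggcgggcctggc
Psme2: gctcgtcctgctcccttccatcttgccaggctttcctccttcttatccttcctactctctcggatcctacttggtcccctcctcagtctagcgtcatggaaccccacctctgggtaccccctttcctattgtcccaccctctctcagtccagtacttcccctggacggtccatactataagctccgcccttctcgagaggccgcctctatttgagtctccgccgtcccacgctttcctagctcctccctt
Psmb8: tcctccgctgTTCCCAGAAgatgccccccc

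Promoters of 41 members were matched by symbol, and Psmb1, Psmb2, Psmb7, Psmc3, Psmd3, Psmd7 and Psmg2 were not matched. In the 250 bases before the start site, searched on both strands, the interferon regulatory factor element, read as GAAA, any 2 bases and GAAA again, was found for 3 members (7.32%), Psmb3, Psmd4 and Psmd9, and in 2.98% of 32851 promoters. The GAS element TTCNNNGAA was found for 2 members (4.88%), Psmb8 and Psmg1, and in 7.02% of all promoters. The antioxidant response element TGACNNNGC was found for 5 members (12.2%), Psmb5, Psmb6, Psmc6, Psmd12 and Psmd9, and in 10.2% of all promoters. No match to these 3 motifs was found in the windows of Psme1, Psme2, Psmb9 or Psmb10. For Psme1 the window held only the 116 bases printed above, so the 134 bases nearest its start site were not searched. For Psme2 it was the window before the upstream of 2 listed start sites. Matches of different motifs may overlap, and a match says nothing of binding.

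Neither of the other activators passed. Psme3, the nuclear PA28 gamma, stood at 125, 240, 0 and 115 CPM for skin and 109, 119, 91.8 and 221 CPM for spleen, with 1 skin library at 0 and the rest inside the spleen range or above it. Its log2 difference was -0.17 ± 1.5 (SE; adjusted p = 0.998 by edgeR), positive without skin replicate 3 or spleen replicate 4. Psme4, which encodes PA200, stood at 106, 0, 0 and 46.0 CPM for skin and 129, 0, 9.69 and 12.5 CPM for spleen. A single library led in each tissue, and the log2 difference of 0.01 ± 2.72 (SE) took either sign among the alternatives.

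Immunoproteasome transcripts had lower mean levels in skin, and none of the 3 genes passed the test. Psmb8, the chymotrypsin-like subunit that takes the place of Psmb5, stood at 1275, 639, 592 and 469 CPM for skin and 1573, 1624, 2378 and 1482 CPM for spleen. Skin replicate 1 came close to the spleen values without reaching them. The log2 difference was -1.25 ± 0.33 (SE; adjusted p = 0.0639 by edgeR). Psmb9, which replaces Psmb6, stood at 192, 46.8, 52.1 and 26.1 CPM for skin and 462, 268, 440 and 325 CPM for spleen. Again skin replicate 1 was the highest of the skin libraries, far above the other skin values, and below all of spleen. The log2 difference was -2.24 ± 0.66 (SE; adjusted p = 0.105 by edgeR). Psmb10, which replaces the trypsin-like Psmb7, stood at 53.3, 187, 117 and 177 CPM for skin and 447, 247, 444 and 499 CPM for spleen. Here skin replicate 1 was the lowest and spleen replicate 2 the nearest to skin. The log2 difference was -1.62 ± 0.47 (SE; adjusted p = 0.0951 by edgeR). Without skin replicate 1, Psmb8 and Psmb9 were called lower (log2 differences -1.67 and -3.19, adjusted p = 0.0140 by edgeR and 0.0174). That library held the highest skin value of both genes, and each was called in 1 of the 8 fits without a library. Over these fits the adjusted p by edgeR reached 0.179 for Psmb8 and 0.259 for Psmb9. No omission of 1 library led to a call for Psmb10. Psmb9 and Psmb8 lie in the MHC region of chromosome 17 in RefSeq's order Psmb9, Tap1, Psmb8, Tap2, between genes of class II antigen presentation.

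None of the constitutive catalytic subunits passed. Psmb5 stood at 648, 99.1, 235 and 369 CPM for skin and 245, 257, 258 and 319 CPM for spleen, so that skin held both the highest and the lowest library. Psmb6, the caspase-like subunit, stood at 362, 503, 240 and 344 CPM for skin and 302, 328, 213 and 391 CPM for spleen. Psmb7 stood at 102, 189, 68.9 and 44.5 CPM for skin and 29.0, 111, 72.0 and 48.8 CPM for spleen. Skin and spleen overlapped for all 3, with log2 differences of 0.32 ± 0.52, 0.23 ± 0.33 and 0.63 ± 1.03 (SE) and edgeR adjusted p of 0.998 each. Without skin replicate 2 the log2 difference of Psmb7 was 0.093. The sign turned for Psmb5 without skin replicate 1 (-0.23) and for Psmb6 without skin replicate 2 (-0.0070). RefSeq lists pseudogenes of Psmb5, Psmb6, Psmb7 and Psma5, with which reads may be shared.

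**Figure D3:**
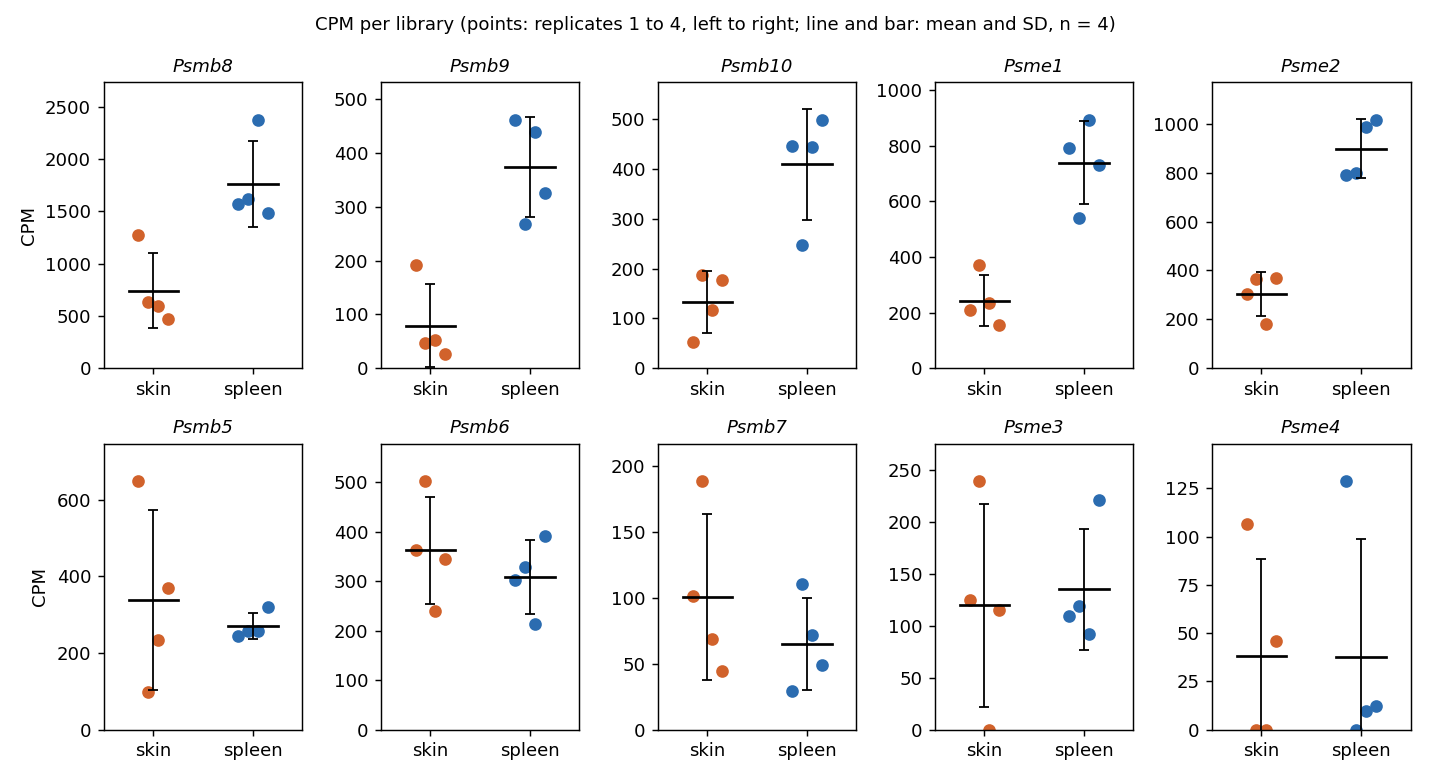
CPM in each library (points, replicates 1 to 4 from left to right) with mean and SD (n = 4) for the immunoproteasome and PA28 genes in the upper row and for their constitutive counterparts and the other activators in the lower row. Skin points lie below all spleen points in each upper panel, and the tissues overlap in each lower panel.

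Each immunoproteasome gene was then set against the subunit it replaces within the same library, as the log2 ratio of CPM + 1, in which gene length drops out of the difference between tissues. For Psmb9 over Psmb6 the ratio was -0.91, -3.40, -2.18 and -3.67 in skin replicates 1 to 4 and 0.61, -0.29, 1.04 and -0.27 in spleen replicates 1 to 4. All 4 skin libraries were below all 4 spleen libraries, with a difference of -2.81 (two-sided exact permutation p = 0.0286, the least possible with 4 libraries a tissue). For Psmb10 over Psmb7 the means were 0.45 ± 1.22 and 2.75 ± 1.19 (SD, n = 4 each), a difference of -2.30, with 3 skin libraries below the spleen range and replicate 4 inside it (two-sided exact permutation p = 0.0571). For Psmb8 over Psmb5 the means were 1.33 ± 0.98 and 2.69 ± 0.41 (SD, n = 4 each), a difference of -1.35, with skin replicate 2 inside the spleen range (two-sided exact permutation p = 0.0857). Adjusted over these 3 pairs, the exact permutation p was 0.0857 for each, so no pair passed. After this adjustment a pair at the least possible p could pass only if another pair also reached it. Leaving out a library kept all 3 differences below 0, from -3.36 to -1.03.

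**Figure D4:**
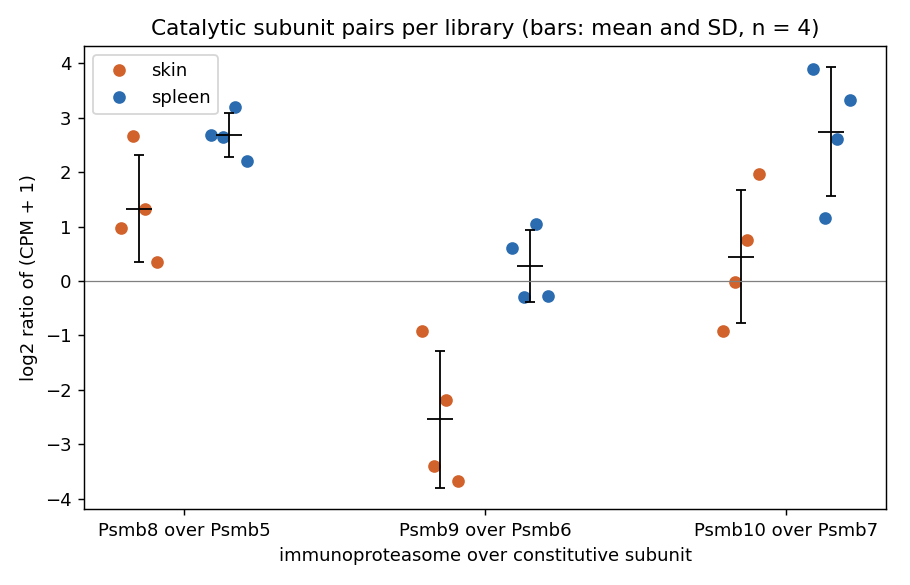
Log2 ratio of (CPM + 1) of each immunoproteasome gene over the constitutive gene it replaces, per library, with mean and SD (n = 4). The mean ratio in skin is below that in spleen for each pair, and the libraries do not overlap for Psmb9 over Psmb6.

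Levels of different genes were compared per kilobase of transcript, taken as the median length of the coding transcripts in GENCODE M21. On this scale Psmb8 held the highest mean level of the 48 members in spleen (1084 ± 254 CPM per kilobase), followed by Psme1 (1039 ± 209) and Psme2 (1022 ± 138), and their SDs overlap. The next was the core subunit Psmb3 at 555 ± 93.2. In skin Psmb3 stood first (659 ± 123 CPM per kilobase), then Psmb2 (570 ± 278), Psmb8 (457 ± 222), Psmb6 (454 ± 135) and Psmb5 (444 ± 308), whose order is within their spread. The per-length level of Psmb8 was 3.06 times that of Psmb5 in spleen and 1.03 times in skin. Psmb10 was at 5.56 times Psmb7 in spleen and 1.17 times in skin, and Psmb9 at 0.715 times Psmb6 in spleen and 0.129 times in skin, each as a ratio of tissue means. Without skin replicate 1, a setting chosen after seeing the data, the skin ratio of Psmb9 to Psmb6 was 0.0678.

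In the alpha rings, which gate the core, Psma2 and Psma4 separated the tissues without passing. Psma2 stood at 481, 475, 221 and 357 CPM for skin and 890, 982, 758 and 544 CPM for spleen (log2 difference -1.05 ± 0.31, SE; adjusted p = 0.105 by edgeR). Psma4 stood at 87.5, 65.6, 29.1 and 183 CPM for skin and 260, 261, 259 and 228 CPM for spleen (log2 difference -1.47 ± 0.62, SE; adjusted p = 0.35 by edgeR). Spleen libraries were nearly alike for this gene, and skin replicate 4 was the nearest to them. Psma1, Psma3, Psma5, Psma6 and Psma7 overlapped between the tissues, with log2 differences from -0.46 to 0.50. Among the non-catalytic beta subunits Psmb1 was the steadiest, at 297, 245, 288 and 310 CPM for skin and 526, 514, 427 and 509 CPM for spleen. Its log2 difference of -0.79 ± 0.23 (SE; adjusted p = 0.091 by edgeR) was small, and the tissues did not overlap. Psmb2, Psmb3 and Psmb4 overlapped, with log2 differences of 0.11, 0.25 and 0.21. None of the 14 constitutive core genes passed the test, 5 having a log2 difference below 0 and 9 above.

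The regulatory particle held no called gene among 17, with 11 log2 differences below 0 and 6 above. Psmc2, one of the ATPases that unfold substrates, stood at 112, 40.9, 144 and 63.8 CPM for skin and 302, 342, 421 and 257 CPM for spleen. The tissues were well apart, and the log2 difference was -1.87 ± 0.50 (SE; adjusted p = 0.0659 by edgeR). Another ATPase, Psmc3, lay in the other direction, at 524, 340, 413 and 167 CPM for skin and 245, 75.7, 229 and 201 CPM for spleen. It had the largest positive log2 difference of the tested members, 0.94 ± 0.49 (SE; adjusted p = 0.557 by edgeR), and skin replicate 4 lay inside the spleen range. Psmc1, Psmc4, Psmc5 and Psmc6 overlapped, with log2 differences from -0.36 to 0.58, and Psmc5 stood at 0 in skin replicate 3.

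Of the non-ATPase subunits, Psmd4, a receptor for ubiquitin chains, stood at 98.8, 118, 40.6 and 199 CPM for skin and 459, 201, 327 and 278 CPM for spleen. Skin replicate 4 almost met spleen replicate 2, and the log2 difference was -1.47 ± 0.54 (SE; adjusted p = 0.239 by edgeR). Psmd14, the deubiquitinase that removes the chain, stood at 105 ± 51.9 and 256 ± 134 CPM (SD, n = 4 each) with overlapping libraries (adjusted p = 0.449 by edgeR). The scaffold Psmd1 stood at 104 to 136 CPM for skin and 125 to 451 CPM for spleen. Psmd7 was highest in skin replicate 2, at 132, 341, 44.7 and 135 CPM for skin and 93.4, 82.2, 85.1 and 141 CPM for spleen (log2 difference 0.70 ± 0.76, SE; adjusted p = 0.998 by edgeR), and without that library the log2 difference was 0.0089. The remaining 7 of the 11 non-ATPase genes had overlapping tissues and no call.

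The assembly chaperones help build the particles and are not part of the mature enzyme. All 7 had a log2 difference below 0, from -3.73 to -0.15, and none passed. They were also the class with the most values at 0, 16 of 28 in skin and 0 of 28 in spleen. Psmg4, a chaperone of the 20S core, stood at 10.3 CPM in skin replicate 2, at 0 in the other skin libraries, and at 30.001, 50.7, 30.6 and 26.9 CPM in spleen replicates 1 to 4 (log2 difference -3.73 ± 2.50, SE; adjusted p = 0.795 by edgeR). Psmd10, a chaperone of the 19S base, stood at 60.7 CPM in skin replicate 3, at 0 in the other skin libraries, and at 121, 248, 58.6 and 47.7 CPM for spleen (log2 difference -2.97 ± 2.60, SE; adjusted p = 0.945 by edgeR). The tissues overlapped for Psmd10 and not for Psmg4. Psmg3 and Psmd9 each had a count in 1 skin library (70.4 and 109 CPM), and Psmd5 stood at 140 CPM in skin replicate 3 and below 1 CPM in the rest. Zeros were common at such levels, though less so than in this class, where 57.1% of skin values were 0. Among genes with a spleen mean of 60 to 150 CPM, 29.9% of skin values were 0, and among those of 30 to 60 CPM, 41.0%. A value of 0 allows up to 3 counts, or 0.292 to 0.454 CPM, as far as counting error goes, and does not cover transcripts lost before sequencing. Whether the values at 0 reflect the cells was not tested.

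Psmf1, which encodes the core-binding regulator PI31, stood at 206, 0, 0 and 65.5 CPM for skin and 82.4, 158, 315 and 120 CPM for spleen, with overlap and no call. The thymus subunit Psmb11 stayed at or below 0.342 CPM in every library. Psmc3ip matches the name rule but encodes a protein of meiotic recombination. It stood at 35.5 CPM for spleen replicate 2, at 0.446 CPM for spleen replicate 4 and at 0 in the others.

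The interferon gamma pathway, which induces the immunoproteasome and PA28 in many cells, was read from a list of 8 genes. Ifng itself stood at 218, 105, 116 and 54.2 CPM for skin and 42.3, 129, 137 and 285 CPM for spleen, with overlap and no call (adjusted p = 0.998 by edgeR). The receptor chain gene Ifngr1 was higher in skin, at 2894, 2455, 1687 and 2000 CPM against 577, 340, 656 and 471 CPM for spleen (log2 difference 2.14 ± 0.26, SE; adjusted p = 0.00426 by edgeR), and was called in all 8 fits without a library. Ifngr2, the other receptor chain, had a count in 2 skin libraries and in no spleen library and was not tested. Genes that act after the receptor did not pass. Irf1, a transcription factor of immunoproteasome genes, stood at 334, 641, 380 and 231 CPM for skin and 1100, 804, 781 and 939 CPM for spleen (log2 difference -1.19 ± 0.32, SE; adjusted p = 0.0694 by edgeR). It was called lower without skin replicate 2 (adjusted p = 0.0328 by edgeR). The tissues did not overlap for Irf1. Nlrc5, the activator of MHC class I genes, stood at 69.0 CPM in skin replicate 3 and at 0 in the other skin libraries. Its spleen values were 81.3, 215, 173 and 136 CPM (adjusted p = 0.905 by edgeR). It was called in 1 of the 8 fits without a library (adjusted p = 0.0419 by edgeR). That fit left out skin replicate 3, the only skin library with a count of this gene. Of the 8 genes 1 was higher, 0 were lower, 6 did not pass and 1 was not tested.

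Among 8 genes of class I peptide supply and loading, 1 was higher, 0 were lower and 7 did not pass. The transporter genes beside Psmb8 and Psmb9 did not pass, with Tap1 at 323 ± 241 CPM for skin and 656 ± 58.3 CPM for spleen and Tap2 at 89.1 ± 68.4 and 436 ± 152 CPM (SD, n = 4 each). The class I light chain gene B2m stood at 5575 ± 574 and 5813 ± 533 CPM, with a log2 difference of -0.06 ± 0.11 (SE). The chaperone gene Calr was higher in skin, at 891, 1420, 1352 and 774 CPM against 492, 556, 526 and 639 CPM (log2 difference 1.003 ± 0.24, SE; adjusted p = 0.0480 by edgeR), and when single libraries were dropped its call survived once in 8, on dropping skin replicate 4.

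Of 18 assembly, docking and shuttle factors 17 were matched and 15 tested, and 0 were called. Pomp, which helps the beta rings mature, stood at 142, 54.9, 47.4 and 157 CPM for skin and 417, 417, 262 and 328 CPM for spleen. The tissues did not overlap, and the log2 difference was -1.83 ± 0.51 (SE; adjusted p = 0.0818 by edgeR). Of 6 genes of proteasome regulation and the p97 route, 1 was higher and 0 were lower. Nfe2l2, the antioxidant transcription factor that can raise proteasome genes, stood at 465, 421, 635 and 309 CPM for skin and 72.4, 194, 92.5 and 144 CPM for spleen. The log2 difference was 1.87 ± 0.42 (SE; adjusted p = 0.0473 by edgeR), and the call was lost in each of the 8 fits without a library, where the log2 difference stayed from 1.62 to 2.14. Nfe2l1, the factor that restores proteasome genes when the enzyme is inhibited, had no count in skin and 58.1 and 43.4 CPM for spleen replicates 3 and 4. Over the 39 matched partners, 3 were called higher and 0 lower of 35 tested, beside 1.85% and 3.58% of all genes.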

How the data were processed

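The authors deposited expected counts per gene, made with RSEM per the submitters' processing notes and not scaled for library size. Those notes also name FastQC, DESeq2 1.16.1 and the build mm9. Per the labels' protocols, cDNA came from an ultra-low-input full-length kit (SMART-Seq v4) and was sequenced as paired reads of 75 bases. Aligner, annotation and strand setting: not given in the sources used here. All 8 columns hold the same unit and were matched to samples by the labels' descriptions, with 0 columns unused.

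Counts were rounded, filtered with filterByExpr (6920 genes left), scaled by TMM and fitted with edgeR 4.0.16 (robust glmQLFit and glmQLFTest, tissue as the only term, Benjamini-Hochberg) in R 4.3.3. The SE is the log2 fold change divided by the square root of F. The common dispersion was 2.94 with 6 residual degrees of freedom. Ratios within libraries used a pseudocount of 1 CPM and exact permutation tests (scipy 1.17.1). Simulated counts were used to test the edgeR fit, and not the permutation tests. With each gene's estimated dispersion most of the changed genes were not called, at every fold simulated. With a low dispersion all but the smallest fold were recovered. Alternatives were RLE scaling, no filter, 5 CPM in 4 libraries, DESeq2 1.42.0, limma-voom (limma 3.58.1), the replicate block, each library left out, a pseudocount of 10 CPM and unscaled totals. Reads carry no molecular identifiers. Total counts per library were 7191131 to 9791973. The error from transcripts lost before sequencing was not measured, so the spread between libraries may be technical in part or whole.

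Members and lists were chosen with earlier results of these data known. Values of every library are given for called members, the 3 catalytic pairs, Psme genes, members without overlap and the 3 largest log2 fold changes each way. Partner genes named with all values are Ifng, Irf1, Nlrc5, Pomp and Nfe2l1 and up to 3 called each way per list, and 1 further gene of that rule is not reported here. Other genes named were chosen after their values were seen. Of 40 partner symbols 39 matched, and all marker symbols did. Transcript lengths of 48 members came from GENCODE M21, an annotation of another build than mm9.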

Additional observations from a re-analysis of the deposited data

Results flagged for a closer look

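In 18 of 92 groups of 4 libraries (46 members in 2 tissues), 1 library stood far from the others. Its gap to the nearest, as a share of the group's range, exceeded Dixon's critical value. For normally distributed values chance gives about 4.6 such groups. In skin, these were Psmb9 in replicate 1 (192 CPM), Psmd10 (60.7 CPM) and Psmd5 (140.2 CPM) in replicate 3, Psmd9 in replicate 4 (109 CPM), Psmg3 in replicate 1 (70.4 CPM) and Psmg4 in replicate 2 (10.3 CPM), each as the highest value. All but Psmb9 belong to the assembly chaperones, whose other skin values were at 0 or below 1 CPM. Where all other values are 0, any count exceeds the critical value, so the 18 cannot be set against the chance figure. In spleen replicate 1, Psmc6 (211 CPM), Psmd11 (216 CPM) and Psme4 (129 CPM) were high, and Psma3 (104 CPM), Psmd3 (146 CPM) and Psmd5 (35.5 CPM) were low. In spleen replicate 3, Psmb8 (2378 CPM) was high, and Psmb1 (427 CPM) and Psmc1 (103 CPM) were low. Psmb5 was high (319 CPM) and Psma4 low (228 CPM) in spleen replicate 4, and Psmg4 was high (50.7 CPM) in spleen replicate 2.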

How the results depend on the processing

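Over all genes, 128 were higher and 248 lower, against 201 and 1179 with DESeq2, 209 and 519 with limma-voom, 48 lower without a filter, and 47 to 102 higher and 17 to 111 lower without 1 library. Of the proteasome members 2 were lower, as also with RLE scaling, without a filter and with 5 CPM in 4 libraries. By limma-voom 3 were lower, Psme1, Psme2 and Psmg4 (adjusted p of 0.0347, 0.00958 and 0.0298), the last with 3 skin libraries at 0. The number lower was 0 with DESeq2 (adjusted p of 0.237 for Psme1 and 0.234 for Psme2) and 0 to 2 without 1 library. The number of genes tested also rose to 7052 to 7935 in those last fits. Partners gave 3 higher and 0 lower, 1 higher without a filter, 1 lower with DESeq2, 4 lower with limma-voom, and 1 to 2 higher and 0 to 1 lower without 1 library. With the replicate block 36 genes were higher and 14 lower, 0 members were lower and 1 partner was higher. The labels do not say whether same-numbered libraries are paired. Their deviations from the tissue means correlated at 0.00175 to 0.0106. With this spread between libraries, such values cannot show whether they shared an animal or a batch. With the replicate block the 3 pair differences of -1.35, -2.81 and -2.30 are unchanged by arithmetic. Their paired exact permutation p, adjusted over the 3 pairs, was 0.25, 0.1875 and 0.1875 in that order. With 4 libraries a tissue this paired test could not pass, whatever the values.

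The pair differences stayed below 0 under every alternative run, from -1.80 to -1.03 for Psmb8 over Psmb5, -3.36 to -2.44 for Psmb9 over Psmb6 and -2.83 to -1.85 for Psmb10 over Psmb7 without 1 library, where 4 against 3 libraries cannot pass. Class sums moved by less than 1 SD between libraries under each alternative. The sign of Psmb5 turned with limma-voom (-0.15) and over the fits without 1 library it ran from -0.23 to 0.58, while Psmb6 ran from -0.0070 to 0.37, Psme3 from -0.80 to 0.20, Ifng from -0.72 to 0.26 and Psme4 from -1.34 to 2.35. Psme4 also turned with RLE scaling (-0.027), DESeq2 (-0.030), limma-voom (-1.87) and the replicate block (-0.75).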
